A study of Homo sapiens with 6 samples.

Results

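The 4 ID genes, the inhibitory and BMP-linked SMAD genes SMAD6, SMAD7 and SMAD9, the ligand genes BMP2 and BMP4 and the pseudoreceptor gene BAMBI were examined in PC-3 cells given menthol. They are 10 of the 18404 genes measured, and all 10 were found, each by a single probeset that the platform annotation ties to that symbol alone. Where a gene had several, the brightest was to be kept, but no member had another. The members were chosen by their gene symbols, with the menthol and vehicle intensities of these same arrays known, so their differences are given as a description and without a test.

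PC-3 is an androgen-independent line grown from a human prostate carcinoma. Menthol, the cooling compound of mint, was given in ethanol at 0.1%, and the vehicle cells received the ethanol alone. Each group held 3 arrays, and all cells were kept in DMEM with 10% fetal bovine serum. The question was how menthol affects the expression profile of this line. The sources used here give neither menthol dose nor treatment time, and nothing in the labels says that replicates were separate cultures, so the errors and p-values below measure only the spread between these arrays, which may be technical.

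BMPs are secreted ligands that join type I and type II receptor kinases, which phosphorylate SMAD1, SMAD5 and SMAD9. These bind SMAD4 and switch on target genes, among which the ID genes are the best known. ID proteins hold a helix-loop-helix domain without a DNA-binding region, pair with E proteins and keep them off DNA, and are linked to an undifferentiated, proliferating state in many epithelial tumours. SMAD6, SMAD7 and BAMBI are themselves induced by the pathway and dampen it.

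The arrays had median intensities between 47.4 and 49.1 units, and the median SD between replicates was 0.10 with menthol and 0.08 with vehicle on the log2 scale. The number of arrays limits the precision. Dim genes tended upward: with all genes divided by mean signal into 4 equal classes, the median log2 difference, menthol minus vehicle, was 0.10 in the dimmest class, 0.06 and -0.01 in the middle classes and -0.05 in the brightest. The 4 epithelial markers KRT8, KRT18, EPCAM and CDH1 lay between the 87.6th and 99.0th percentile of signal. Their summed intensity was 8525 to 8784 with menthol and 5213 to 5466 with vehicle, and 4 of 4 were higher past the threshold of limma (adjusted p under 0.05); the part of this shift in the values below was not tested. The 2 measured luminal markers, KLK3 and KLK2, lay at the 32.2nd and 33.6th percentile, with a summed intensity of 74.7 to 78.2 with menthol and 79.4 to 82.5 with vehicle, and 0 of 2 passed. Of 4 measured leukocyte markers 0 passed (sum 74.2 to 90.9 with menthol, 66.5 to 85.4 with vehicle), of 4 endothelial markers 1 was higher (sum 101 to 111 with menthol, 84.9 to 89.3 with vehicle), and of 6 fibroblast markers 2 were higher and 1 was lower (sum 342 to 370 with menthol, 393 to 415 with vehicle). All samples were of the PC-3 line, so the leukocyte, endothelial and fibroblast markers are read as signal in these cells. In bulk RNA, a change in the share of cells that express a marker and one in its RNA per cell cannot be told apart.

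The members split. ID1 and ID3 were higher with menthol, while the feedback genes SMAD6 and BAMBI and the ligand gene BMP4 were lower. The groups did not overlap in these 5 members, against 45.3% of all genes, of which 23.5% were higher and 21.7% lower. Nothing is read from this count, since the members were proposed from this contrast. The median absolute log2 difference was 0.26 over the members and 0.16 over all genes, and the median signed difference was -0.08 over the members and 0.03 over all genes.

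**Figure D1:**
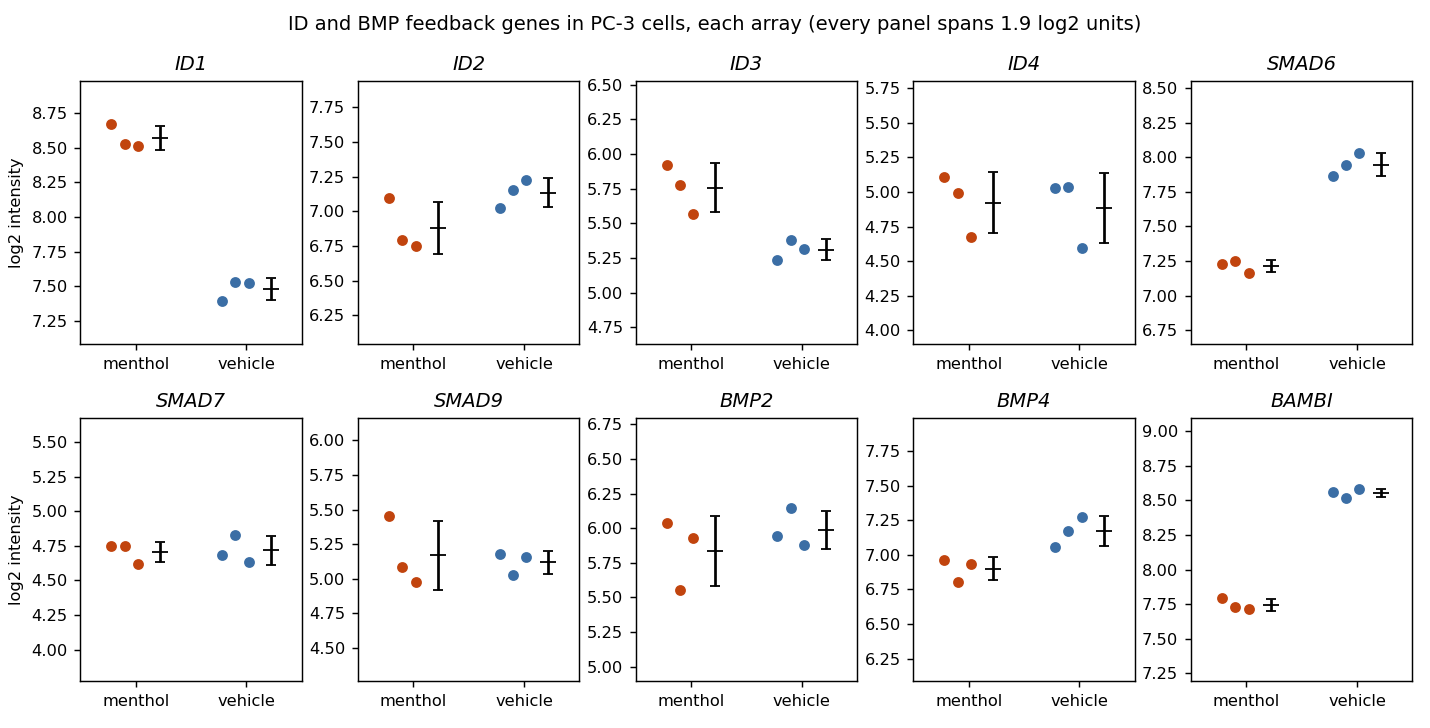
Log2 intensity (vertical axis) of the 10 members on each of the 3 menthol and 3 vehicle arrays; each point is an array and the bar beside it the mean with 1 SD each way, and every panel spans the same number of log2 units. ID1 and ID3 sit higher with menthol and SMAD6, BMP4 and BAMBI lower, while the groups overlap in the other 5.

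ID1 had an intensity of 408, 369 and 365 with menthol, against 168, 185 and 184 with vehicle. All menthol arrays lay above all vehicle arrays, and the gap between the groups was far wider than the spread within either. On the log2 scale the means were 8.57 ± 0.09 with menthol and 7.48 ± 0.08 with vehicle (SD, n = 3 each), a difference of 1.09 ± 0.07 (SE), or 2.13-fold. Of the 18404 genes, 160, or 0.869%, differed by more in either direction. ID1 was chosen with this contrast known, so the rank is a description only.

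ID3 followed in the same direction at a lower signal, at the 36.5th percentile of genes. Its intensity was 60.6, 54.9 and 47.5 with menthol, against 37.6, 41.7 and 39.7 with vehicle. The groups did not overlap, although the menthol arrays were spread more widely (SD 0.18) than the vehicle arrays (SD 0.08). The log2 difference was 0.45 ± 0.10 (SE), or 1.36-fold, and the median of the genes in its signal class was 0.06.

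ID2 went the other way on average. Its intensity was 137, 111 and 108 with menthol, against 130, 142 and 150 with vehicle. Menthol replicate 1 lay within the vehicle range and the other menthol arrays lay below it, so the groups overlapped. On average ID2 differed by -0.25 ± 0.10 (SE) on the log2 scale, and without menthol replicate 1 by -0.36. With all arrays its 95% interval was -0.50 to -0.01, a description only, with no adjustment for the number of genes or the choice of the members.

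ID4, which in other systems acts partly against the other ID proteins, had an intensity of 34.4, 31.8 and 25.6 with menthol, against 32.7, 32.7 and 24.2 with vehicle. Replicate 3 was the lowest array in each group, and the groups overlapped throughout. ID4 differed by 0.04 ± 0.15 (SE) on the log2 scale, with a 95% interval of -0.31 to 0.38.

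BAMBI encodes a receptor-like membrane protein that lacks the kinase domain and blocks signalling by type I receptors of BMP, activin and TGF-beta. Its intensity was 222, 212 and 210 with menthol, against 378, 367 and 383 with vehicle. It was the member with the tightest replicates, with an SD of 0.04 with menthol and 0.03 with vehicle on the log2 scale. This gave a log2 difference of -0.81 ± 0.06 (SE), which is 1.75-fold lower with menthol.

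SMAD6, the inhibitory SMAD that acts chiefly on BMP signalling, had an intensity of 150, 152 and 144 with menthol, against 233, 246 and 262 with vehicle. Again all menthol arrays lay below all vehicle arrays. The log2 difference was -0.73 ± 0.07 (SE), or 1.66-fold lower with menthol. SMAD6 and ID1, which the same ligands induce in many cells, lay near opposite ends of the members ranked by difference.

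SMAD7, the inhibitory SMAD that also acts on TGF-beta signalling, was dim, at the 24.5th percentile, with an intensity of 26.8, 26.9 and 24.6 with menthol, against 25.7, 28.4 and 24.8 with vehicle. The groups overlapped and the log2 difference was -0.01 ± 0.08 (SE), with a 95% interval of -0.19 to 0.16.

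**Figure D2:**
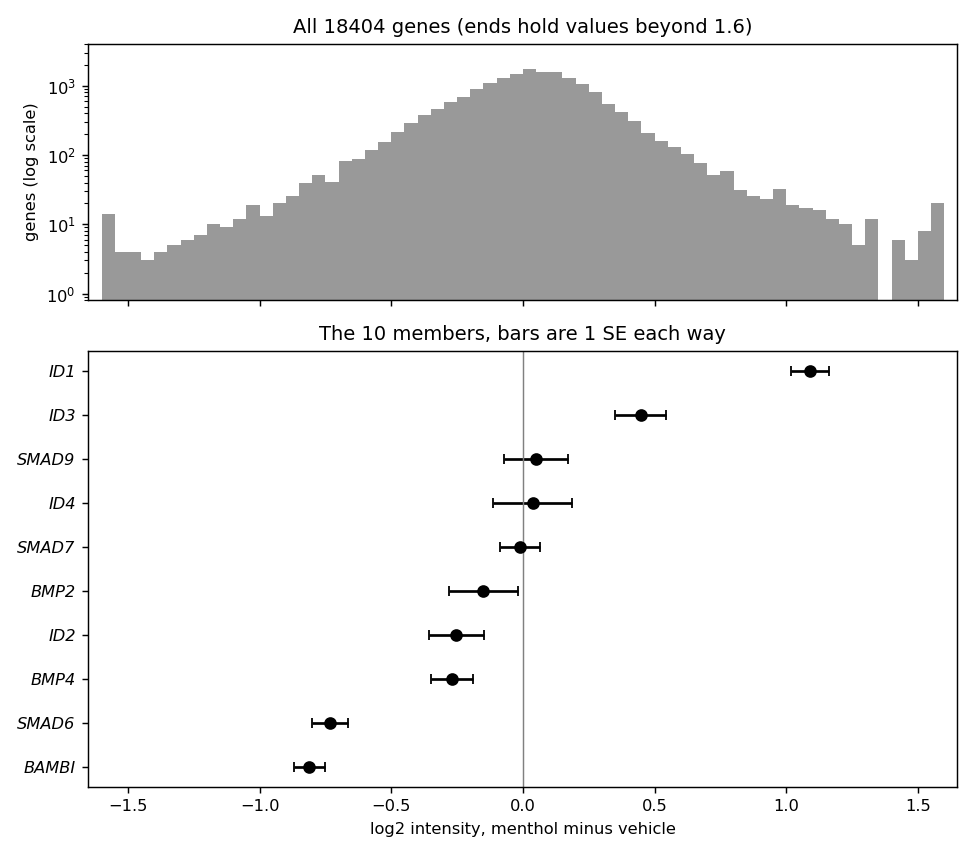
Log2 intensity difference, menthol minus vehicle (horizontal axis), for all 18404 genes as a histogram with a log count axis (top) and for the 10 members as points with bars of 1 SE each way (bottom). ID1 stands at 1.09 and ID3 at 0.45, SMAD6 and BAMBI at -0.73 and -0.81, and the other 6 between -0.27 and 0.05.

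The promoters of the 4 members with the largest differences are shown because these genes, all known targets of BMP signalling, moved in opposite directions. Each is the 250 bases before the annotated start, 5′ to 3′ on the gene's strand, from RefSeq (GRCh38.p14). Of the 10 members 9 had a promoter entry. ID1 is at chr20:31605039-31605288 (+ strand), ID3 at chr1:23559502-23559751 (- strand), SMAD6 at chr15:66701986-66702235 (+ strand) and BAMBI at chr10:28677271-28677520 (+ strand). Capitals mark GGCGCC and GGAGCC, GC-rich sequences that BMP-activated SMADs are known to bind, and CAGAC, a form of the SMAD-binding sequence, on either strand.
ID1: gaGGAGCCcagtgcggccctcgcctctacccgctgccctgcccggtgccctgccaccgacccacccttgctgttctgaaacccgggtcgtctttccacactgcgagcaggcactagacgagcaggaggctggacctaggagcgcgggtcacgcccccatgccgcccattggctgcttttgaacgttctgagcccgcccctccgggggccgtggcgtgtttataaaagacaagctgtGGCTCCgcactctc
ID3: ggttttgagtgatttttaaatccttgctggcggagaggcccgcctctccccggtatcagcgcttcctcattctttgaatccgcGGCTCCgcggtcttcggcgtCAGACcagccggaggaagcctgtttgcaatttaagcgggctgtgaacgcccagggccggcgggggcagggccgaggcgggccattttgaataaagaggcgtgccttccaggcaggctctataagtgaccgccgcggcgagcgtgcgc
SMAD6: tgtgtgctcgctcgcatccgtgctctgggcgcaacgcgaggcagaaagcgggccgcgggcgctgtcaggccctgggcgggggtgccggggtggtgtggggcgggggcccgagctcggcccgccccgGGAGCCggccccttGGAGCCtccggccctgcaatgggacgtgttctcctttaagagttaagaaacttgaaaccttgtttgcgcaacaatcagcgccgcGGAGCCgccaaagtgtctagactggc
BAMBI: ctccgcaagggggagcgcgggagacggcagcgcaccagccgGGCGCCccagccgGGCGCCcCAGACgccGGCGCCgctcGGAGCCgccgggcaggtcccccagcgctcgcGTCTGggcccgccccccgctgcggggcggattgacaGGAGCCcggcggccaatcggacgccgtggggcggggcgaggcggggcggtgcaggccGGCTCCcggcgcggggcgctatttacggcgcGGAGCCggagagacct
The marked matches did not overlap each other in any of the 4 windows. GGCGCC occurred 3 times in BAMBI and 0 times in ID1, ID3 and SMAD6, and was present in 16.4% of the 34943 promoter windows of this length. GGAGCC or its other strand GGCTCC occurred 2 times in ID1, 1 time in ID3, 3 times in SMAD6 and 4 times in BAMBI, and in 30.7% of all windows. CAGAC or GTCTG occurred 1 time in ID3, 2 times in BAMBI and 0 times in ID1 and SMAD6, and in 38.0% of all windows. Other forms of the SMAD-binding sequence were not searched for. The SMAD6 window holds GTCTAGAC near its end, which the search did not mark. The windows were 66.0% G and C in ID1, 62.0% in ID3, 68.0% in SMAD6 and 81.2% in BAMBI, against a median of 58.0%, which bears on how often such letters occur. GGAGCC was thus in all 4 windows, of higher and lower genes alike. Among the other members it occurred 3 times in SMAD9, 2 times in ID4 and 0 times in ID2. In SMAD7 and BMP4, which have several windows, it occurred 1 time in 1 window each. GGCGCC occurred 1 time in 1 BMP4 window and was absent from ID2, ID4, SMAD7 and SMAD9. CAGAC or GTCTG occurred 1 time in ID4, also in windows of BMP4 and SMAD7, and 0 times in ID2 and SMAD9. The differences of SMAD9, ID4 and SMAD7 lay near 0, and whether a GGAGCC match bears on any difference was not tested. The element best known to answer BMP in mouse Id1 lies farther upstream than this window, and the matches are a description of letters only.

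Among the ligand genes, BMP4 had an intensity of 125, 112 and 122 with menthol, against 133, 144 and 155 with vehicle. The groups did not overlap but lay close, and the log2 difference was -0.27 ± 0.08 (SE). BMP2 had an intensity of 65.5, 46.9 and 60.9 with menthol, against 61.7, 70.7 and 58.7 with vehicle. Its groups overlapped, with menthol replicate 2 the lowest array. The log2 difference was -0.15 ± 0.13 (SE, 95% interval -0.46 to 0.16), and without menthol replicate 2 it was -0.01.

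SMAD9, a BMP-activated SMAD that is also known to restrain the pathway, had an intensity of 43.7, 33.9 and 31.4 with menthol, against 36.1, 32.5 and 35.8 with vehicle. Menthol replicate 1 was the highest array and menthol replicate 3 the lowest, so the menthol arrays enclosed the vehicle arrays. The log2 difference was 0.05 ± 0.12 (SE, 95% interval -0.23 to 0.33). Without menthol replicate 1 it was -0.09.

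The other genes of the pathway, 128 genes in 7 lists, were then examined, of which 123 were measured. Of these, 23 rose and 13 fell in limma (adjusted p under 0.05), which is 29.3% of the measured genes, close to the 29.1% of all genes. Over all genes 14.6% rose and 14.5% fell. The median log2 difference was 0.05 over the lists and 0.03 over all genes. The pathway outside the members was thus called no more often than other genes, and the description below is of its single genes.

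**Figure D3:**
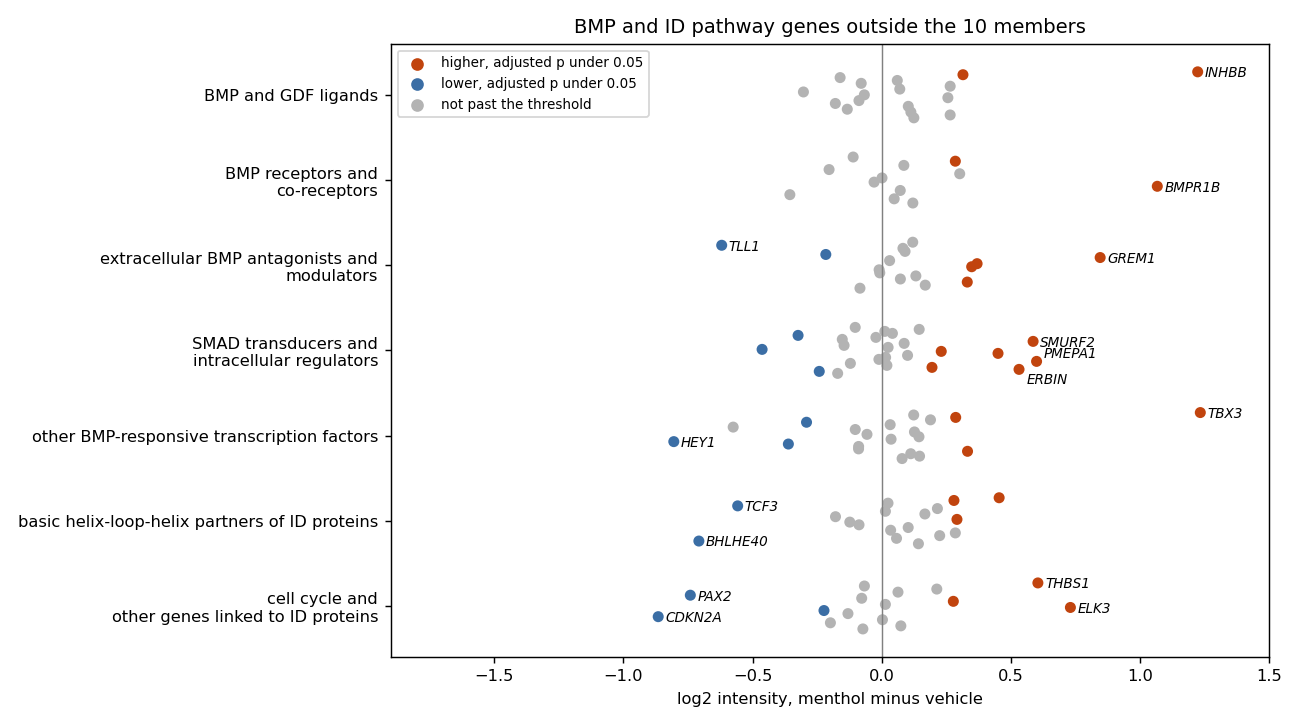
Log2 intensity difference, menthol minus vehicle (horizontal axis), of the 123 measured pathway genes outside the members, by list; red points were higher and blue points lower at an adjusted p under 0.05 in limma, and grey points were not past it. INHBB, BMPR1B and TBX3 stand above 1, and both directions occur in 5 of the 7 lists.

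Among 17 further ligand genes, BMP and GDF genes listed with the activin subunit genes INHBA and INHBB, 2 rose and 0 fell (median 0.07). The genes that rose were INHBA and INHBB, so no BMP or GDF gene of the list was called. INHBB, the subunit of activin B, had log2 intensities of 9.33, 9.18 and 9.19 with menthol, against 8.11, 7.94 and 7.98 with vehicle. It rose by 1.22 ± 0.07 (SE), or 2.33-fold (adjusted p = 5.74e-05 in limma). INHBA, the subunit of activin A, rose by 0.31 ± 0.06 (adjusted p = 0.00773 in limma). Without menthol replicate 2, 1 ligand gene fell in place of 0, as also under cyclic loess normalization, equal array medians, either filter on dim genes, the trended prior and array weights.

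Of 12 receptor and co-receptor genes 2 rose and 0 fell (median 0.06). BMPR1B, a type I BMP receptor, had log2 intensities of 4.88, 5.36 and 5.34 with menthol, against 4.07, 4.15 and 4.16 with vehicle. It rose by 1.07 ± 0.13 (adjusted p = 0.000871 in limma) from a dim signal, at the 23.9th percentile, in a signal class whose median was 0.10. RGMB, a BMP co-receptor, rose by 0.28 ± 0.06 (adjusted p = 0.0127 in limma), a call that ended without vehicle replicate 2 (adjusted p = 0.0536 in limma), so that 1 receptor gene rose there. Without menthol replicate 2, under quantile normalization and with the trended prior 1 receptor gene fell, and under cyclic loess normalization, with equal array medians and with the dimmest genes left out 2 fell. With either filter on dim genes 1 receptor gene rose, since BMPR1B was itself among the genes left out. The main type II receptor gene BMPR2, chosen after its values were seen, was at -0.03 ± 0.06.

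Of 16 extracellular antagonists and modulators 4 rose and 2 fell (median 0.09). GREM1, a secreted BMP antagonist, had log2 intensities of 6.10, 6.29 and 6.22 with menthol, against 5.35, 5.46 and 5.27 with vehicle. It rose by 0.84 ± 0.08, or 1.80-fold (adjusted p = 0.000306 in limma). FSTL1, a secreted glycoprotein that binds BMPs, and FST, which traps activins and some BMPs, rose by 0.37 ± 0.08 and 0.35 ± 0.06. TLL1, a protease that cleaves the antagonist chordin, fell by 0.62 ± 0.09 (adjusted p = 0.00207 in limma). With any of the 6 arrays left out, 1 gene of this list fell in place of 2, and with the stricter filter on dim genes 2 rose in place of 4. That filter left out GREM1 itself and CER1, another gene of the list that rose.

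Of 24 SMAD transducers and intracellular regulators 6 rose and 3 fell (median 0.02). PMEPA1, a membrane protein that sequesters receptor-activated SMADs of the TGF-beta branch, rose by 0.60 ± 0.07 (adjusted p = 0.000771 in limma). SMURF2, a ubiquitin ligase that degrades SMADs and receptors, rose by 0.59 ± 0.08, and ERBIN, which binds SMAD2 and SMAD3, rose by 0.53 ± 0.08. SMAD3, a transducer of TGF-beta and activin, had log2 intensities of 9.58, 9.54 and 9.56 with menthol, against 10.10, 9.94 and 10.04 with vehicle. It fell by 0.46 ± 0.06 (adjusted p = 0.00179 in limma). Without menthol replicate 1, 5 genes of this list rose, and 4 rose with any other array left out or with the replicate block; with the stricter filter on dim genes or the trended prior 5 fell in place of 3.

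The transducers of the BMP branch, chosen after their values were seen, gave differing values. SMAD1 had log2 intensities of 8.48, 8.70 and 8.64 with menthol, against 8.10, 8.18 and 8.19 with vehicle, and rose by 0.45 ± 0.08 (adjusted p = 0.00385 in limma). SMAD5 was at -0.15 ± 0.10 and the shared partner SMAD4 at 0.02 ± 0.09 (adjusted p = 0.297 and 0.873 in limma), and their groups overlapped.

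Of 20 other transcription factor genes known to respond to BMP 3 rose and 3 fell (median 0.06). TBX3, a T-box repressor, had log2 intensities of 8.45, 8.50 and 8.55 with menthol, against 7.33, 7.25 and 7.22 with vehicle. It rose by 1.23 ± 0.06, or 2.35-fold (adjusted p = 3.86e-05 in limma). HEY1, a target of Notch as well as BMP, had log2 intensities of 7.65, 7.59 and 7.67 with menthol, against 8.51, 8.33 and 8.49 with vehicle. It fell by 0.80 ± 0.07 (adjusted p = 0.000241 in limma), and HES1, another Notch target, fell by 0.36 ± 0.08. The related gene HEY2, chosen after its values were seen, was at 0.04 ± 0.09, and its groups overlapped. The homeobox gene DLX5 rose by 0.33 ± 0.08 at the 22.7th percentile of signal, a call that ended without menthol replicate 2 or vehicle replicate 1 or 3, where 1 gene of the list rose in place of 3.

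Of 18 measured basic helix-loop-helix genes, the class of proteins that ID proteins pair with or oppose, 3 rose and 2 fell (median 0.08). TCF3, a main E protein gene, had log2 intensities of 7.82, 7.83 and 7.72 with menthol, against 8.34, 8.37 and 8.34 with vehicle. It fell by 0.56 ± 0.06 (adjusted p = 0.000606 in limma). The other E protein genes TCF4 and TCF12, chosen after their values were seen, were at 0.02 ± 0.08 and 0.01 ± 0.06. BHLHE40, a repressor of the circadian clock, fell by 0.71 ± 0.07, TWIST2 rose by 0.45 ± 0.09, and the proneural gene NEUROG2, dim at the 27.5th percentile, rose by 0.29 ± 0.07.

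Of 16 genes of the cell cycle and others linked to ID proteins 3 rose and 3 fell (median -0.03). CDKN2A, a cyclin-dependent kinase inhibitor gene known to be repressed by ID1 in human fibroblasts, had log2 intensities of 6.51, 6.50 and 6.64 with menthol, against 7.37, 7.51 and 7.37 with vehicle. It fell by 0.87 ± 0.07, or 1.82-fold (adjusted p = 0.000195 in limma). THBS1, which ID1 represses in mouse cells, rose by 0.60 ± 0.06 (adjusted p = 0.000415 in limma). ELK3, an ETS factor that ID proteins can bind, rose by 0.73 ± 0.06, and PAX2, another factor that they can bind, fell by 0.74 ± 0.10. CDKN1A, chosen after its values were seen and a common target of E proteins, was at 0.07 ± 0.06 (adjusted p = 0.365 in limma).

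The genes whose profile lay closest to that of ID1 were sought among the 9201 genes other than ID1 in the brighter part of the signal range, by the root mean square distance over the 6 arrays after each gene's vehicle mean was subtracted. They were the keratin gene KRT7 at a distance of 0.02 log2 units, LPXN, a focal adhesion adaptor, at 0.05, CCBE1, a secreted matrix protein, at 0.05 and the fucosidase gene FUCA2 at 0.07. Their own log2 differences were 1.11, 1.14, 1.09 and 1.03. The arrays fall into 2 groups, so this distance is set largely by how alike the differences between menthol and vehicle are in size.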

How the data were processed

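Per the labels, 6 Affymetrix whole-transcript arrays were run, 3 for menthol and 3 for vehicle, each from 300 ng of total RNA of PC-3 cells. The authors deposited a table of intensity values for 32321 probesets. RMA is named in the submitters' processing notes; the sources used here do not give its software or version. The intensities ran from 1.57 to 14835 and were taken as linear from this range, so log2 was taken. The 19158 probesets with 1 gene symbol in the platform annotation were used, and the 1388 with several and the 11775 unnamed here were not. For each of 18404 genes the probeset with the highest mean was kept (637 genes had more than 1).

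Groups were compared in limma 3.58.1 (R 4.3.3; lmFit and eBayes) with no term besides group, by two-sided tests adjusted by Benjamini-Hochberg over all genes and a threshold of 0.05. SEs are moderated and signal percentiles are ranks of a gene's mean. The fit was tested on simulated data. An exact test of 3 against 3 arrays cannot go below 0.1. The members and gene lists were chosen with earlier results of these data known. From each list the text names up to 4 genes with the largest change past the threshold and no overlap, or 2 with the smallest p where none passed; for ID1, it names the 4 nearest genes. Alternatives were other normalizations, filters on dim genes, uses of probesets, priors (statmod 1.5.0), array weights, a replicate block, a threshold of 0.01 and the omission of each array. Same-numbered arrays were checked for pairing. The correlations of their deviations from the group means were 0.01, -0.01 and 0.09, so the numbers were not taken to pair them. Figures and promoter searches used Python 3.11.15, pandas 2.3.3 and matplotlib 3.10.9.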

Additional observations from a re-analysis of the deposited data

How the results depend on the processing

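The differences of ID1, ID2, ID3, SMAD6, BMP2, BMP4 and BAMBI kept their sign under all alternatives run. ID1 ranged from 1.04 to 1.13, ID3 from 0.37 to 0.54, SMAD6 from -0.77 to -0.69, BMP4 from -0.33 to -0.22 and BAMBI from -0.83 to -0.77. BAMBI shifted by more than its small pooled replicate SD of 0.04 under quantile and cyclic loess normalization, to -0.77 under each. The differences of ID4, SMAD7 and SMAD9 lay near 0 and changed sign under 3, 2 and 2 alternatives. Leaving out 1 array at a time, 3839 to 4828 genes were past the threshold in place of 5353, with 18 to 23 pathway genes higher in place of 23 and 9 to 12 lower in place of 13. At a threshold of 0.01, 2841 genes passed, with 15 pathway genes higher and 8 lower. With the replicate number as a block, 4868 genes passed, with 21 pathway genes higher and 12 lower. Over the other normalizations, filters, probeset rules, priors and weights, 18 to 25 pathway genes were higher and 11 to 18 lower. No background level was estimated. Signal close to background may limit what can be said of ID4, SMAD7 and SMAD9, which lay between the 24.5th and 30.7th percentile. The same holds for BMPR1B, DLX5 and NEUROG2, at the 23.9th, 22.7th and 27.5th percentile.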

Other observations

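Further pathway genes passed the threshold in limma (adjusted p under 0.05) and were named after their values were seen. NOG, which encodes the BMP antagonist noggin, fell by 0.22 ± 0.06 (SE, adjusted p = 0.039 in limma), with log2 intensities of 9.34, 9.41 and 9.43 with menthol, against 9.69, 9.56 and 9.58 with vehicle. Its call ended with any of the 6 arrays left out (adjusted p from 0.0565 to 0.133 in limma), under quantile and cyclic loess normalization and with the replicate block. SMAD2 rose by 0.23 ± 0.06, but it was not past the threshold with the replicate block or without any 1 array other than menthol replicate 1 (adjusted p from 0.0723 to 0.0974 in limma without those arrays). TWIST1 rose by 0.28 ± 0.07 beside TWIST2 at 0.45, a call on TWIST1 that ended without vehicle replicate 1 or 2 (adjusted p = 0.0628 and 0.0515 in limma). RUNX2, a bone-forming factor induced by BMP, fell by 0.29 ± 0.08, a call that ended without menthol replicate 1 or 2 or vehicle replicate 2 or 3 (adjusted p from 0.0623 to 0.0785 in limma). MSX2, a homeobox gene induced by BMP, was at -0.58 with overlapping groups and was not past the threshold (adjusted p = 0.0857 in limma).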
